A study of Homo sapiens with 30 samples.

Results

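The nuclear genes that encode the respiratory chain and the ATP synthase were followed in EA.hy926 and A549 cells exposed in coculture to 3 aerosols. Genes were chosen by symbol: the NDUFA, NDUFB, NDUFC, NDUFS and NDUFV families for complex I, SDHA to SDHD for complex II, the UQCR family and CYC1 for complex III, CYCS for cytochrome c, the COX genes numbered 4 to 8 for complex IV and the ATP5 family for complex V. Of 86 matching symbols, 3 pseudogenes were removed, and ATP5MF-PTCD1, COX6B2 and NDUFA7 did not reach 30 counts in 3 libraries of a line. The same 80 genes passed in both lines, of 10709 genes tested in EA.hy926 cells, 11775 tested in A549 cells and 18460 in the files. They comprise 36 genes of complex I, 4 of complex II, 10 of complex III, the single gene of cytochrome c, 11 of complex IV and 18 of complex V. NDUFA4 was counted with complex I by its symbol, although its protein is now regarded as a subunit of complex IV. COX4I2, COX6A2, COX7A1, COX7B2 and COX8C were not analysed here.

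Complexes I and II pass electrons from NADH and succinate to ubiquinone, complex III passes them on to cytochrome c, and complex IV gives them to oxygen. Complexes I, III and IV pump protons while they do so, and complex V, the ATP synthase, uses the resulting gradient to make ATP. A few core subunits are encoded by the mitochondrial genome, all others by nuclear genes whose products are imported, and complex II, which is also an enzyme of the tricarboxylic acid cycle, is encoded in the nucleus alone. In lung cells complexes I and III are known as sources of reactive oxygen species, and mitochondria as a target of inhaled oxidants.

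The experiment placed EA.hy926 cells, a hybrid line of human umbilical vein endothelial cells and an A549 clone, on the basolateral side of an insert, and A549 cells, a human lung adenocarcinoma line, on its apical, directly exposed side. Over 4 h, with air above the apical cells, the cocultures received soot particles (SP), soot particles with secondary organic aerosol from β-pinene (SOAβPIN-SP) or from naphthalene (SOANAP-SP), or clean air (CA), all in serum-free medium. By the paper the aerosols were diluted, and the SOA aerosols were aged by OH radicals while SP was not aged. Its estimate of the deposited mass was lowest for SP and highest for SOANAP-SP. Type of aerosol and deposited mass can therefore not be told apart. Each line gave 15 poly-A RNA libraries, 3 for SP and 4 for each of the other exposures, and every library of a group came from a different experiment. No experiment held more than 1 aerosol, so that aerosol and experiment cannot be told apart, and CA shared an experiment with SP (number 53), with SOAβPIN-SP (38) and with SOANAP-SP (42) 1 time each. Both lines are single established lines, and EA.hy926 cells carry A549 chromosomes by their origin. Among the markers, PECAM1 had 49.4 to 74.5 CPM (counts scaled to a common library total) and CDH5 165 to 272 CPM in EA.hy926 cells, against at most 0.96 and 1.63 CPM in A549 cells, while EPCAM had at most 0.59 CPM in EA.hy926 cells and 13.4 to 33.2 CPM in A549 cells. Not all markers separated the lines: the keratins KRT7, KRT8 and KRT18 had medians of 807, 591 and 418 CPM in EA.hy926 cells and 2229, 10150 and 3630 CPM in A549 cells, the endothelial marker EGFL7 had 769 to 1263 CPM in EA.hy926 cells and 77.5 to 133 CPM in A549 cells, and ENG reached 15.65 CPM in an A549 library. VWF and CLDN5, further endothelial markers, stayed at or below 2.48 and 0.59 CPM in EA.hy926 cells, and ESRP1, an epithelial splicing regulator, at or below 1.13 CPM in A549 cells. Counts per library summed to 10003314 to 16610686 in EA.hy926 cells and to 7317041 to 15012539 in A549 cells. Since the samples were bulk RNA, fewer cells of a type and less RNA per cell cannot be told apart.

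Several of these genes are known targets of the transcription factors NRF1, GABPA (an ETS factor), YY1 and SP1, so the RefSeq promoters (GRCh38.p14, 250 bases before to 50 after the start site) of the 66 members that matched were searched on both strands. The NRF1 letters (GCGCA, any base, GCGC) were found in 24.2% of the 66 promoters, the ETS letters CCGGAAG in 31.8%, the YY1 letters AAGATGGC in 16.7% and the SP1 letters GGGCGG in 63.6%. Among 9947 promoters of tested genes the shares were 12.3%, 20% (ETS), 5.86% and 74%, and among all 35116 promoters 5.78%, 10.3%, 2.89% and 45%. The letters of different motifs do not overlap in the sequences below, and a match describes the sequence only. The 250 bases before the start site are shown for 4 genes whose transcripts changed in A549 cells, SDHA and SDHD because these subunits of complex II moved in opposite directions, UQCRC2 because it was higher with all 3 aerosols, and COX7A2 because it had the largest fold change with SOANAP-SP. Capitals mark motif matches. SDHA (chr5:218070-218319, plus strand) holds 4 NRF1 matches that start 166, 117, 68 and 19 bases before the start site. SDHD (chr11:112086623-112086872, plus strand) holds an NRF1 match 110 bases and an ETS match, on the opposite strand, 77 bases before it. The windows of UQCRC2 (chr16:21953111-21953360, plus strand) and COX7A2 (chr6:75243802-75244051, minus strand) hold none of the letters searched, also when the 50 bases after the start site are included.
SDHA: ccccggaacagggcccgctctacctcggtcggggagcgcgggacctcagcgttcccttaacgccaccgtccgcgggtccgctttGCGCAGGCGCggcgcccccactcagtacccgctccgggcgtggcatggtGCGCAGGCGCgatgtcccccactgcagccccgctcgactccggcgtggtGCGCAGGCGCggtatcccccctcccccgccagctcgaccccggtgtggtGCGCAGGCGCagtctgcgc
SDHD: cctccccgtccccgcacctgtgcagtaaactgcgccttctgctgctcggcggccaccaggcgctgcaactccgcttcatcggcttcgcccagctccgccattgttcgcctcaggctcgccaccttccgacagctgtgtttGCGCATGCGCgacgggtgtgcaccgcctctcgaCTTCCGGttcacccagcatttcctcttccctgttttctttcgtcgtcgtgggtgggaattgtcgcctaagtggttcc
UQCRC2: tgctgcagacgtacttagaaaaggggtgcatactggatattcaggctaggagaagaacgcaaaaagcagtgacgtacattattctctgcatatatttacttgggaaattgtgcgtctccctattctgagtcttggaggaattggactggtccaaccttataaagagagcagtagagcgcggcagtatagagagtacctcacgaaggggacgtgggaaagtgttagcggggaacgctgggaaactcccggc
COX7A2: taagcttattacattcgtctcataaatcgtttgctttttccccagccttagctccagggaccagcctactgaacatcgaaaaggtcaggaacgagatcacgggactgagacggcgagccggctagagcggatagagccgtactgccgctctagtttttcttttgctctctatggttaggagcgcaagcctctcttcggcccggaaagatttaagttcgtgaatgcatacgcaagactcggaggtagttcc

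In A549 cells many respiratory chain genes were higher with SOANAP-SP. Of the 80 genes, 36 rose and 1 fell (edgeR quasi-likelihood test, adjusted p of 0.05 or less over all tested genes), while 16.6% of all tested genes rose and 19.1% fell. The changes were small: the median log2 fold change was 0.22 over the 80 genes and 0.0013 over all genes, 75 of the 80 values were positive, and 5 genes also passed the size of 0.5 that marked differentially expressed genes (DEGs; 6.92% of all genes were DEGs that rose). At an unadjusted p under 0.05 there were 43 of the 80 genes, and 45.9% of all. In 39 genes the 4 SOANAP-SP libraries all lay above the 4 CA libraries, as in 15.3% of all tested genes. Complex IV held the largest share of risen genes, 9 of 11 with a median of 0.35, followed by complex I with 17 of 36 (median 0.22), complex III with 4 of 10 (0.23) and complex V with 5 of 18 (0.14). In complex II, 1 gene rose and 1 fell, and CYCS did not pass.

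**Figure D1:**
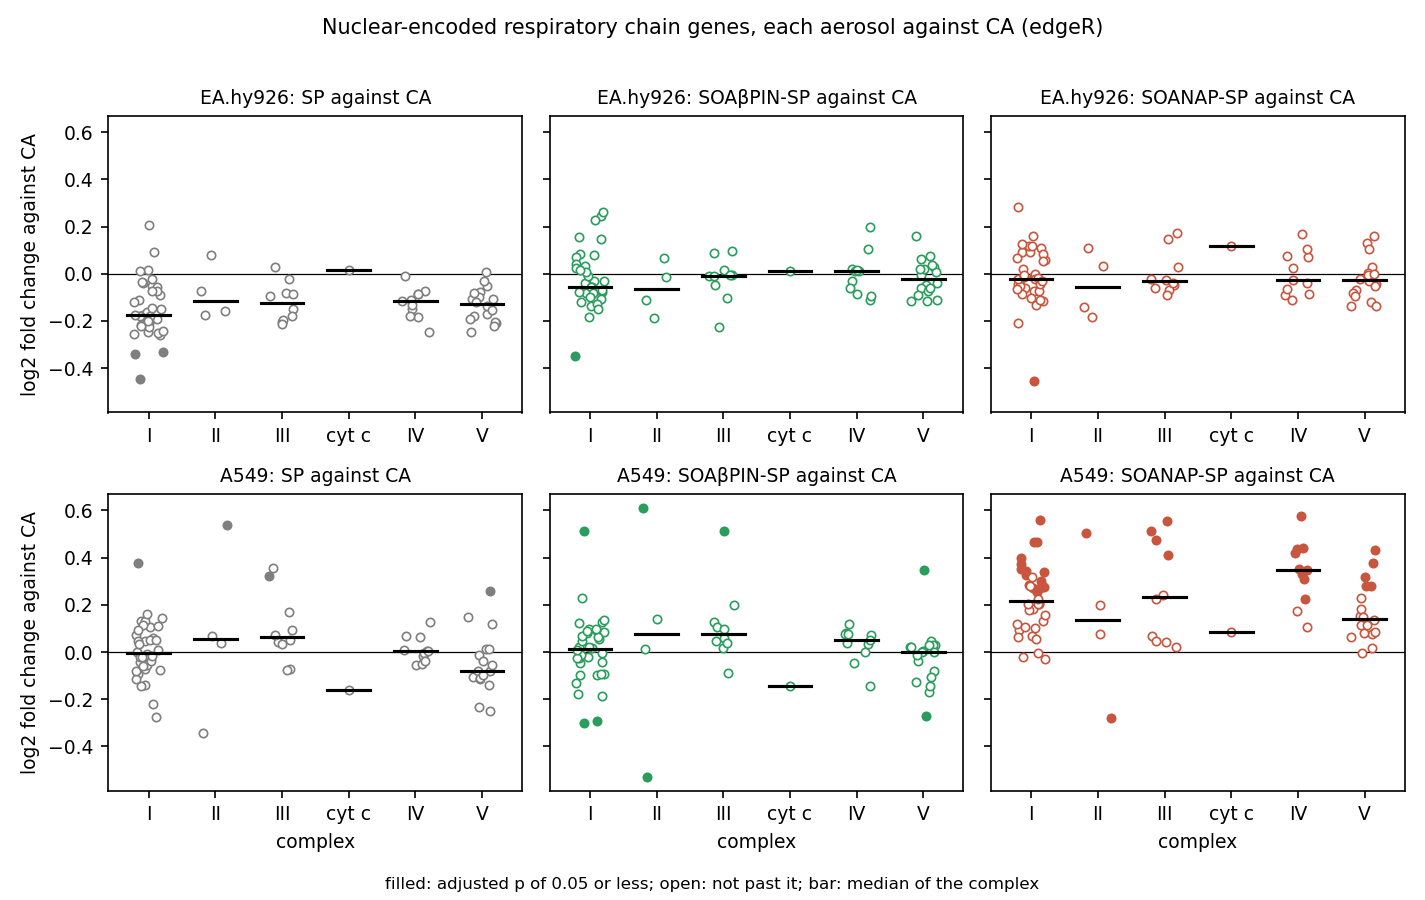
Log2 fold change of each of the 80 genes against CA (vertical axis) by complex (horizontal axis), for EA.hy926 (top) and A549 cells (bottom) and the 3 aerosols (columns); filled points passed the adjusted p, open points did not, and bars are medians of a complex. In A549 cells with SOANAP-SP 36 genes rose and 75 of 80 values lie above 0, while in EA.hy926 cells no point above 0 is filled.

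COX7A2 (chr6:75237675-75250323), a small subunit of complex IV found in most tissues, had 134, 167, 205 and 143 CPM in the SOANAP-SP libraries, against 104, 119, 108 and 105 CPM in CA. The groups did not overlap, replicate 3 of SOANAP-SP was the highest, and the log2 fold change was 0.57 ± 0.13 (SE; adjusted p = 0.0020). The other 8 complex IV genes that rose were COX7B (0.44), COX6C (0.44), COX8A (0.42), COX6A1 (0.35), COX6B1 (0.35), COX7C (0.33), COX5B (0.31) and COX5A (0.22). All of these are nuclear-encoded subunits that surround the catalytic core of complex IV. COX4I1, the subunit through which ATP is known to inhibit the enzyme, had a log2 value of 0.17 (adjusted p = 0.14), and COX7A2L, which is known to join complexes III and IV into supercomplexes, 0.10 (adjusted p = 0.40), and neither passed.

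CYC1 (chr8:144095039-144097525), the haem-carrying cytochrome c1 of complex III, had 480, 511, 544 and 469 CPM with SOANAP-SP, against 366, 381, 317 and 341 CPM in CA. All 4 SOANAP-SP libraries exceeded every CA library (log2 fold change 0.51 ± 0.11, adjusted p = 0.0019). UQCRC2 (chr16:21953288-21983660), a core subunit of complex III, had 194, 202, 198 and 169 CPM, against 131, 135, 131 and 122 CPM in CA. These groups were apart too, and UQCRC2 had the lowest adjusted p of the 80 genes (0.55 ± 0.08, adjusted p = 4.12e-05). UQCRQ, a small subunit near the ubiquinone site, rose by 0.48 and UQCR11 by 0.41. CYCS, the mobile electron carrier that also triggers caspases when released, had 231, 245, 276 and 234 CPM with SOANAP-SP and 239, 244, 226 and 221 CPM in CA, ranges that overlapped (log2 value 0.09, adjusted p = 0.43).

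In complex I, NDUFB1 (chr14:92116122-92121917), an accessory subunit of the membrane arm, had 43.95, 47.99, 60.4 and 45.2 CPM with SOANAP-SP and 34.5, 30.02, 31.0 and 38.3 CPM in CA. The lowest SOANAP-SP library lay above the highest CA library, and the log2 fold change was 0.56 ± 0.12 (adjusted p = 0.0015). NDUFA13, which is also known as the apoptosis factor GRIM-19, rose by 0.47, NDUFB7 by 0.47 and NDUFA11 by 0.40, and the other 13 risen genes of complex I had log2 fold changes of 0.21 to 0.37. Most of them are accessory subunits, while NDUFS1, at 0.27, is a core subunit of the hydrophilic arm. In complex V, ATP5ME (0.43) and ATP5MF (0.38), both small subunits of the membrane part, ATP5MC1 (0.32), a gene for the rotating c-ring, ATP5F1A (0.28), the catalytic-head subunit α, and ATP5MPL (0.28) rose. The call of NDUFS1 was lost without CA replicate 1, 3 or 4 or SOANAP-SP replicate 1, 2 or 4 (adjusted p up to 0.21 over all alternatives), and that of ATP5MC1 without CA replicate 1, 3 or 4 or SOANAP-SP replicate 2 or 3 (up to 0.12). The call of NDUFA13 was lost with scaling by library totals alone, and without CA replicate 3 or SOANAP-SP replicate 1 or 3 (up to 0.073). NDUFA13 also shares 437 and 131 of its 2708 exonic bases with AC011448.1 and YJEFN3 on the same strand. ATP5IF1, the inhibitor of ATP hydrolysis by complex V, had a log2 value of 0.02 (adjusted p = 0.90).

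**Figure D2:**
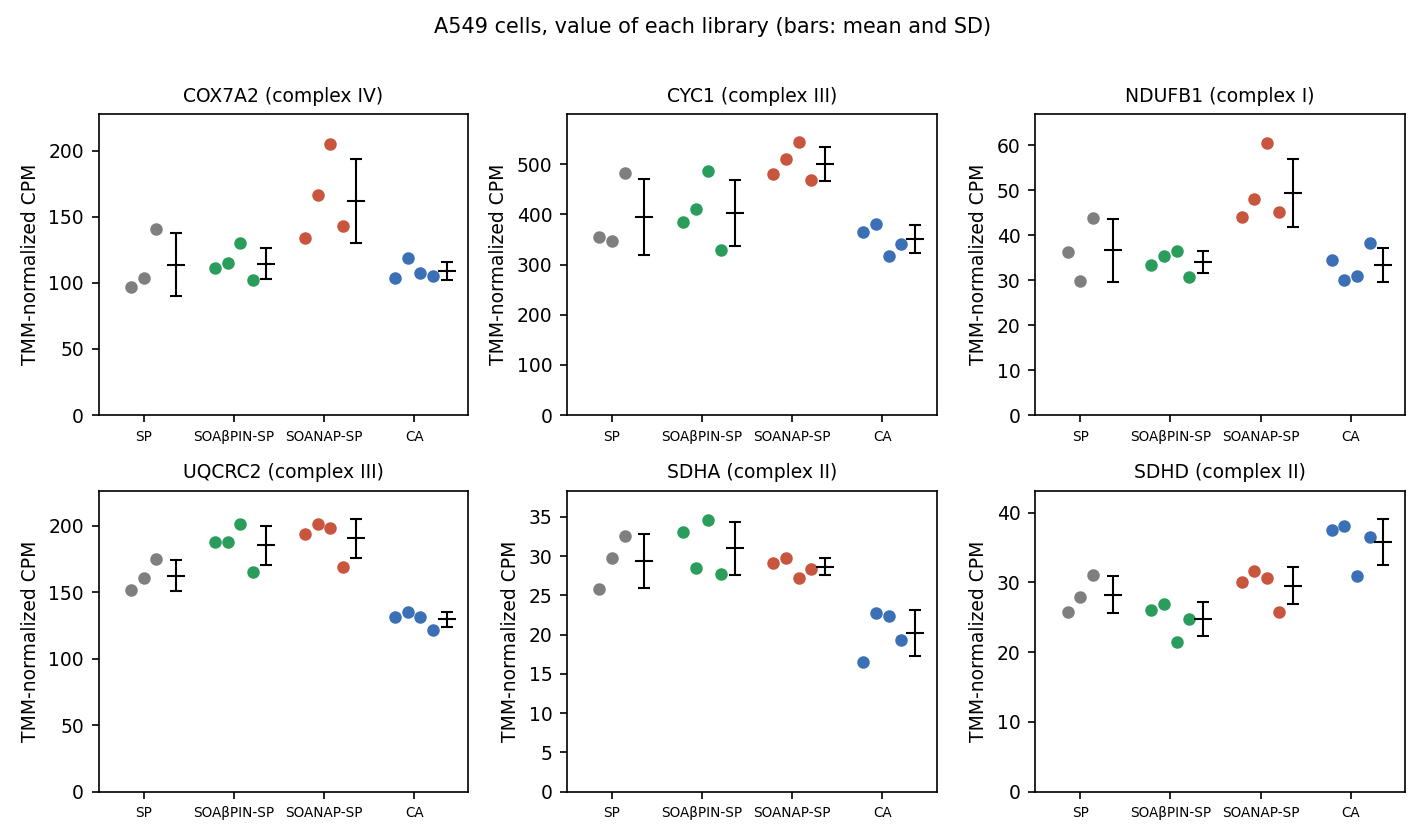
TMM-normalized CPM (vertical axes, from 0) of 6 genes in each A549 library, by exposure; points are libraries and bars the mean and SD of a group. SOANAP-SP libraries of COX7A2, CYC1, NDUFB1 and UQCRC2 all lie above the CA libraries, SDHA is above CA with all 3 aerosols, and SDHD averaged less than CA with each.

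The 4 genes of complex II did not move together. SDHA (chr5:218303-257082), the flavoprotein that oxidises succinate, had 25.8, 29.7 and 32.6 CPM with SP, 33.1, 28.6, 34.6 and 27.7 CPM with SOAβPIN-SP, 29.2, 29.8, 27.3 and 28.4 CPM with SOANAP-SP, and 16.6, 22.7, 22.3 and 19.3 CPM in CA. Every exposed A549 library was above every CA library, with log2 fold changes of 0.54, 0.61 and 0.50 (adjusted p = 0.0081, 0.00048 and 0.0019). SDHD (chr11:112086824-112120016), a membrane anchor of complex II, had 25.8, 28.0 and 31.0 CPM with SP, 26.1, 26.8, 21.4 and 24.7 CPM with SOAβPIN-SP, 30, 31.7, 30.7 and 25.8 CPM with SOANAP-SP, and 37.5, 38.1, 31.0 and 36.6 CPM in CA. Only the SOAβPIN-SP libraries lay wholly below CA, where SDHD fell by 0.53 (adjusted p = 0.00077), and with SOANAP-SP it fell by 0.28 (adjusted p = 0.039), while the value with SP was -0.34 (adjusted p = 0.057). The call with SOANAP-SP was lost without CA replicate 1, 2 or 4 or SOANAP-SP replicate 1, 3 or 4 (adjusted p up to 0.15 over all alternatives), and that of SDHA with SP without SP replicate 3 (0.059). SDHB, the iron-sulfur subunit, and SDHC, the other anchor, passed with no aerosol (log2 values of 0.01 to 0.20). SDHA counts are uncertain, because the genome holds near-identical copies of this gene and 1887 of its 8703 exonic bases are also annotated to another gene on the same strand, AC021087.5.

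SP and SOAβPIN-SP called fewer respiratory chain genes in A549 cells. With SP 4 genes rose and 0 fell (4.22% and 5.94% of all tested genes), and with SOAβPIN-SP 4 rose and 4 fell (11% and 14%). Medians over the 80 genes were -0.00088 and 0.02, and unadjusted p-values were under 0.05 in 9 genes each (24.5% and 36.9% of all genes). SDHA was the DEG with SP, where 2.02% of all genes were DEGs that rose and 3.97% DEGs that fell. With SOAβPIN-SP SDHA, NDUFS1 and UQCRC2 were DEGs that rose (4.31% of all genes) and SDHD a DEG that fell (8.93%). The same 4 genes, SDHA, NDUFS1, UQCRC2 and ATP5F1A, rose with SP, with SOAβPIN-SP and with SOANAP-SP, although these comparisons share the CA libraries. DESeq2 called 1 fall with SP besides 4 rises.

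NDUFS1, the largest core subunit of complex I, had 49.5, 41.8 and 43.7 CPM with SP, 52.7, 52.5, 47.0 and 46.1 CPM with SOAβPIN-SP, 43.1, 46.5, 34.9 and 42.8 CPM with SOANAP-SP, and 34.9, 35.9, 34.3 and 33.7 CPM in CA. Replicate 3 of SOANAP-SP was inside the CA range, and all other exposed libraries were above it (log2 fold changes 0.38, 0.51 and 0.27). UQCRC2 had 152, 161 and 175 CPM with SP and 188, 188, 201 and 165 CPM with SOAβPIN-SP, each above the highest CA value of 135 CPM (0.32 and 0.51). ATP5F1A had 263, 246 and 266 CPM with SP, 274, 281, 291 and 251 CPM with SOAβPIN-SP, 266, 273, 264 and 246 CPM with SOANAP-SP, and 220, 235, 213 and 196 CPM in CA, again with no overlap (0.26, 0.35 and 0.28). Besides SDHD, the genes that fell with SOAβPIN-SP were NDUFC2 (-0.30) and NDUFB3 (-0.29), accessory subunits of complex I, and ATP5IF1 (-0.27). With SP the calls were less firm: leaving out SP replicate 3 gave 0, SP replicate 1 gave 2 and CA replicate 4 gave 1, and among the libraries left out in turn ATP5F1A passed only without CA replicate 2. Over all alternatives the adjusted p reached 0.14 for ATP5F1A, 0.14 for NDUFS1 and 0.11 for UQCRC2. With SOAβPIN-SP 5 calls remained without CA replicate 1 or CA replicate 4, and NDUFC2, NDUFB3 and ATP5IF1 were lost without 3 to 6 of the single libraries, while SDHA, NDUFS1, UQCRC2, ATP5F1A and SDHD passed under all alternatives.

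The library means show how much of the pattern rests on single libraries. On the log2 CPM scale, minus the CA mean, the 80 genes averaged 0.23 ± 0.12 (SD, n = 4; 0.12 to 0.39) in SOANAP-SP libraries of A549 cells and 0.00 ± 0.08 (n = 4; -0.12 to 0.07) in CA libraries. Replicate 3 of SOANAP-SP was the highest and replicate 3 of CA, from experiment 42, the lowest. In place of 37 genes, 22 passed without SOANAP-SP replicate 3 and 24 without CA replicate 3. Within experiment 42, which held both exposures, the median log2 ratio was 0.28 and 76 of 80 genes were positive, but that CA library is the low one. Within the shared experiments the medians were -0.10 for SP (17 of 80 positive) and -0.19 for SOAβPIN-SP (8 of 80), with medians of all genes between -0.011 and 0.0041, so for SOAβPIN-SP the sign of the pooled median of 0.02 did not hold within experiment 38. For SDHA the within-experiment log2 values were 0.62 with SP, 0.28 with SOAβPIN-SP and 0.38 with SOANAP-SP, and for UQCRC2 0.40, 0.29 and 0.56. For SDHD they were -0.38, -0.62 and -0.04.

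**Figure D3:**
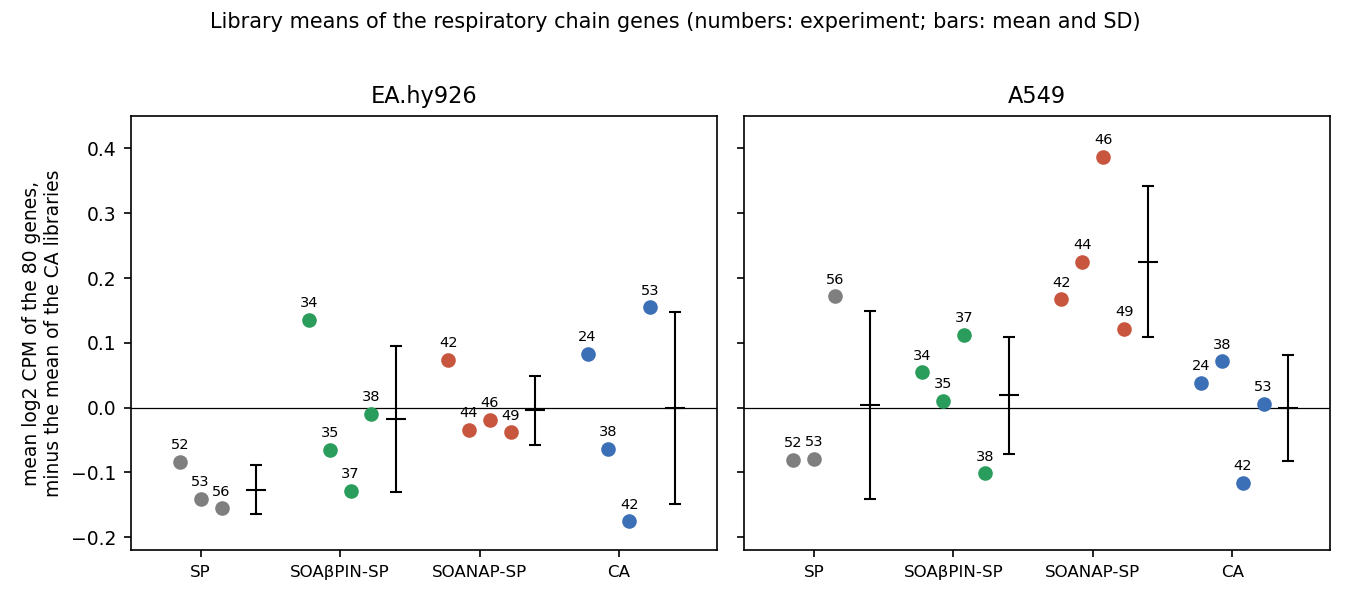
Mean log2 CPM of the 80 genes in each library minus the mean of the CA libraries (vertical axis), for EA.hy926 (left) and A549 cells (right); numbers are experiments and bars the mean and SD of a group. The A549 SOANAP-SP libraries lie at 0.12 to 0.39, above all A549 CA libraries, and the CA library of experiment 42 is the lowest CA library in both lines.

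Other properties of the libraries moved with SOANAP-SP in A549 cells. Transcripts of the mitochondrial genome took 13.1 to 17.4% of the counts with SOANAP-SP and 10.7 to 15.3% in CA, and the TMM factors of these groups, 0.898 to 0.974 and 0.978 to 1.03, did not overlap. Within experiment 42 the mitochondrial share went the other way, with 13.9% for SOANAP-SP and 15.3% for CA. Scaled by library totals alone, 17 genes rose and 1 fell, with a median of 0.12 over the 80 genes and -0.091 over all genes. MALAT1, a nuclear long noncoding RNA, had 151 to 203 CPM with SOANAP-SP and 36.4 to 69.4 CPM in CA, and it was above CA with SP and SOAβPIN-SP as well (at least 161 and 80.7 CPM). Epithelial markers rose too, 9 of 11, with a summed level of 18130 to 19030 CPM with SOANAP-SP and 14890 to 15920 CPM in CA, while endothelial markers summed to 114 to 139 and 92.6 to 132 CPM, mostly EGFL7, with PECAM1, CDH5 and VWF near 0. Of the 2 endothelial markers tested in A549 cells EGFL7 rose (0.33, adjusted p = 0.028) and ESAM fell (-1.43, adjusted p = 0.00025). The part of these properties in the result was not tested.

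Respiratory chain transcripts are short, and short transcripts in general rose more often with SOANAP-SP. Of all genes with a canonical transcript under 700 nt, 31.9% rose (104 of 326, median 0.20), against 15.3% of those over 1500 nt (median -0.02). All genes from 700 to 1500 nt had a median of 0.12. Of the respiratory chain genes under 700 nt 21 of 35 rose (median 0.28), of those between these lengths 6 of 21 (0.20), and of those over 1500 nt 9 of 24 (0.16). NDUFB1, with 317 nt, is the shortest of the DEGs, while SDHA (2693 nt) and UQCRC2 (1914 nt) are longer than most of the 80. The part of length in the result was not tested.

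**Figure D4:**
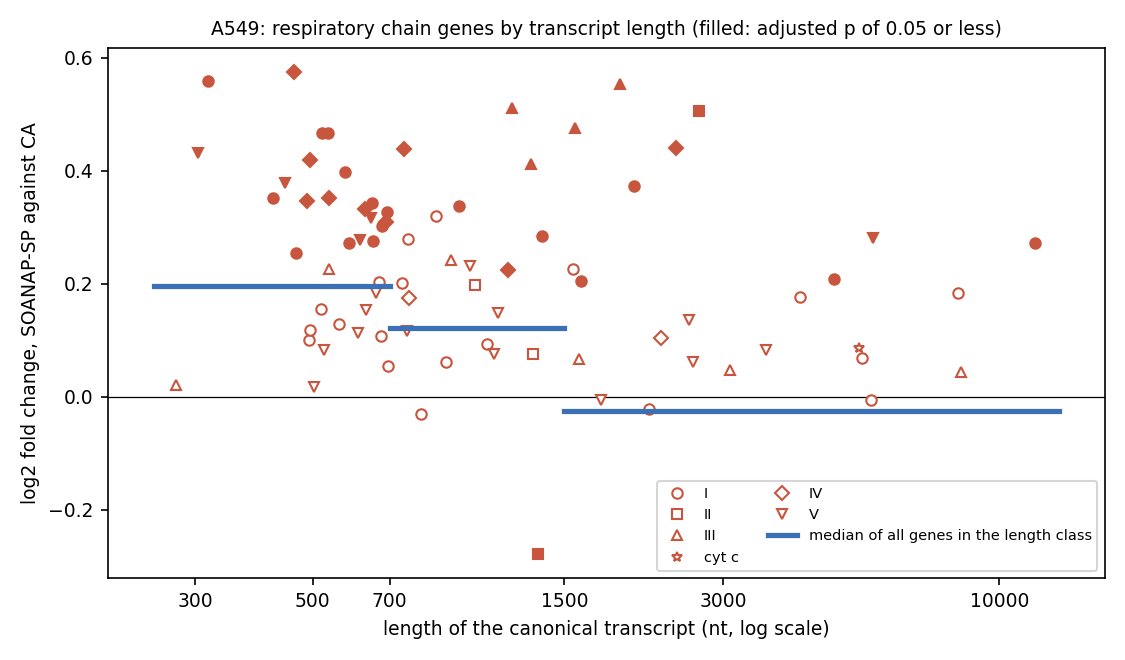
Log2 fold change of the 80 genes in A549 cells with SOANAP-SP against CA (vertical axis) by length of the canonical transcript in nt (horizontal axis, log scale); symbols mark complexes, filled symbols passed the adjusted p, and blue lines are medians of all tested genes in 3 length classes. The blue lines lie at 0.20, 0.12 and -0.02, and the genes of complex IV lie above the line of their class.

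Genes that build or surround the chain gave mixed values with SOANAP-SP in A549 cells, where 16.6% of all tested genes rose and 19.1% fell. Of 16 complex I assembly genes 3 rose, FOXRED1 (0.62), ECSIT (0.42) and COA1 (0.40), and 2 fell, TMEM186 (-0.54) and NDUFAF7 (-0.34). Of 4 complex II assembly factors, SDHAF4 (0.90), which helps to join flavinated SDHA to SDHB, and SDHAF3 (0.42) rose, and UQCC2 (0.38) was the risen gene of 6 for complex III. For complex IV 4 of 20 rose, among them PET100 (0.55) and COX14 (0.44), and COA7 fell (-0.69), and for complex V ATPAF2 (0.41) rose, 1 of 4. Of 13 tricarboxylic acid cycle genes 5 rose and 0 fell, among them OGDH (0.51) and IDH3G (0.46). Of the 13 mRNAs of the mitochondrial genome 3 rose (median 0.26). Of 77 mitochondrial ribosomal protein genes 17 rose and 5 fell (median 0.16), and of 83 cytosolic ones 42 rose and 1 fell (median 0.23), a share of 50.6% beside 45% of the respiratory chain genes.

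The regulators moved both ways. ESRRA (0.56), a nuclear receptor known to drive genes of oxidative metabolism, POLRMT (0.44), the mitochondrial RNA polymerase, and NRF1 (0.36) rose. TWNK (-0.76), the mitochondrial DNA helicase, MYC (-0.63), GABPB1 (-0.59), YY1 (-0.40) and GABPA (-0.37) fell, and 3 of the 11 tested did not pass. GABPA lies opposite to ATP5PF and covers 692 of its 2009 exonic bases. Without a stated strand setting, reads over the shared bases cannot be assigned with certainty. NDUFA4L2, a paralog of NDUFA4 known to be induced by hypoxia, fell by 0.92. SP and SOAβPIN-SP changed fewer of these genes, 1 and 2 rises and 0 and 2 falls among the 11 regulators.

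Tested against each other in A549 cells, SOANAP-SP gave higher levels than SOAβPIN-SP in 23 genes and lower levels in 0 (background 7.94% and 9.99%), and higher than SP in 12 and lower in 0 (5.45% and 7.41%). NDUFB1 (0.54 ± 0.12) and COX7A2 (0.50 ± 0.13) were DEGs against SOAβPIN-SP, and COX7A2 (0.51 ± 0.14) against SP, where 3.45% and 2.84% of all genes were DEGs that were higher with SOANAP-SP. Unadjusted p-values were under 0.05 in 48 and 45 of the 80 genes (33.2% and 29.4% of all). COX7A2 had 111, 115, 130 and 102 CPM with SOAβPIN-SP, all below the SOANAP-SP libraries, and 96.9, 104 and 141 CPM with SP, whose replicate 3 lay inside the SOANAP-SP range. COX8A (0.34 and 0.46), COX6C (0.36 and 0.44) and NDUFB7 (0.40 and 0.42) passed in both comparisons. SOAβPIN-SP and SP differed in 0 of the 80 genes (1 at an unadjusted p under 0.05, beside 11.1% of all genes; 0 with limma-voom and with DESeq2), as 0.0679% of all genes did.

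These counts moved strongly with single libraries and with the scaling. Against SOAβPIN-SP 2 genes passed without SOANAP-SP replicate 3 and 15 without replicate 2, and without SOAβPIN-SP replicate 1, 2, 3 or 4 the count was 13, 8, 37 or 7. Against SP, omitting SP replicate 1 or 2 gave 0, omitting SP replicate 3 gave 31, and omitting SOANAP-SP replicate 2 or 3 gave 6 or 1. With library totals 2 genes were higher and 1 lower against SOAβPIN-SP, and 2 higher against SP, where the median of all genes moved to -0.12 and -0.15. The difference of NDUFB1 between SOANAP-SP and SOAβPIN-SP passed under all alternatives and without any single library. That of COX7A2 missed the threshold without SOANAP-SP replicate 3 (adjusted p = 0.056), and against SP without SP replicate 1 or 2 or SOANAP-SP replicate 3 (up to 0.15). Over all alternatives the adjusted p against SOAβPIN-SP reached 0.11 for COX8A (lost without SOAβPIN-SP replicate 2 or 4 or SOANAP-SP replicate 3), 0.11 for COX6C (SOAβPIN-SP replicate 2, 3 or 4 or SOANAP-SP replicate 3) and 0.11 for NDUFB7 (SOAβPIN-SP replicate 1, 2 or 4 or SOANAP-SP replicate 2 or 3). Against SP it reached 0.070 for COX8A (lost without SP replicate 1 or 2), 0.15 for COX6C (SP replicate 1 or 2 or SOANAP-SP replicate 3) and 0.22 for NDUFB7, which among the libraries left out in turn passed only without SP replicate 3.

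In EA.hy926 cells the respiratory chain genes changed little. With SP 0 of 80 genes rose and 3 fell (background 9.54% and 9.01%), with SOAβPIN-SP 0 and 1 (11.4% and 12.3%) and with SOANAP-SP 0 and 1 (14.3% and 15.5%), and none was a DEG. DEGs made up 4.72% (higher) and 5.12% (lower) of all genes with SP, 5.04% and 6.14% with SOAβPIN-SP, and 6.26% and 8.57% with SOANAP-SP. At an unadjusted p under 0.05 there were 16, 4 and 4 genes (31.6%, 35.1% and 39.6% of all), and limma-voom and DESeq2 each called 1 rise with SP and none with the other aerosols. The median log2 value with SP was -0.15 with 8 of 80 positive, where all genes had a median of -0.017, and -0.03 and -0.02 with the SOA aerosols. Genes under 700 nt had a median of -0.14 with SP over all 311 tested in this line.

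NDUFV3, an accessory subunit near the NADH-oxidising site of complex I, was the gene that fell with all 3 aerosols. It had 20.1, 16.4 and 20.2 CPM with SP, 23.7, 18.9, 18.3 and 19.7 CPM with SOAβPIN-SP, 20.1, 17.5, 18.1 and 19.3 CPM with SOANAP-SP, and 25.4, 26.2, 24.6 and 26.5 CPM in CA. Every exposed library lay below every CA library, with log2 fold changes of -0.45 ± 0.11, -0.35 ± 0.10 and -0.45 ± 0.10 (adjusted p = 0.0065, 0.016 and 0.0018). These comparisons share the CA libraries, and within the shared experiments the log2 values of NDUFV3 were -0.69, -0.41 and -0.29. The call with SP was lost without SP replicate 2 (adjusted p up to 0.068) and that with SOAβPIN-SP without its replicate 2 or 3 (up to 0.060), while that with SOANAP-SP held without any single library.

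With SP, NDUFC2 had 37.4, 37.7 and 34.1 CPM, all below the CA values of 48.7, 44.9, 45.4 and 45.5 CPM (log2 fold change -0.34, adjusted p = 0.031). NDUFB3 had 38.9, 32.8 and 33.6 CPM with SP and 48.1, 42.8, 38.7 and 46.9 CPM in CA, where 1 SP library lay inside the CA range (-0.33, adjusted p = 0.048). Both genes share exonic bases with others, NDUFC2 with the readthrough gene NDUFC2-KCTD14 and NDUFB3 with FAM126B on the opposite strand, so their counts are uncertain, and over all alternatives their adjusted p reached 0.12 and 0.21. The CA library of experiment 42 was low for the whole set, and without it 15 genes passed with SP. Leaving out CA replicate 1 or SP replicate 3 gave 1 gene, and SP replicate 2 gave 0. With SOAβPIN-SP it was 0 without SOAβPIN-SP replicate 2 or 3 and 2 without its replicate 4 or CA replicate 3, and with SOANAP-SP 2 without CA replicate 2 or 4 and 3 without SOANAP-SP replicate 4. Within the shared experiments the medians were -0.28 with SP (4 of 80 positive), 0.06 with SOAβPIN-SP (57) and 0.24 with SOANAP-SP (77). Over all genes they were -0.017, 0.0034 and 0.014, with 48.2%, 50.4% and 51.3% positive. The signs of the pooled medians of the 80 genes therefore did not hold within experiment 42 for SOANAP-SP (-0.02) and within experiment 38 for SOAβPIN-SP (-0.03).

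Of the genes that rose most in A549 cells with SOANAP-SP, none passed in EA.hy926 cells. UQCRC2 had 239, 237, 227 and 209 CPM with SOANAP-SP and 252, 212, 211 and 277 CPM in CA, with overlapping ranges (log2 value -0.06, adjusted p = 0.65). COX7A2 (-0.04), NDUFB1 (0.09), SDHA (0.11) and CYC1 (0.17) did not pass with SOANAP-SP either. A call in A549 cells alone is not a difference between the lines, and NDUFB1 and CYC1 did not pass the interaction test described below. Within experiment 42, whose CA library was low, the EA.hy926 log2 values were 0.81 for NDUFB1, 0.55 for COX8A, 0.44 for COX6C, 0.40 for CYC1, 0.19 for COX7A2 and 0.18 for UQCRC2. SDHD had -0.17 with SP, -0.19 with SOAβPIN-SP and -0.18 with SOANAP-SP (adjusted p = 0.16, 0.090 and 0.084). Of the other lists in EA.hy926 cells, mitochondrial ribosomal protein genes fell in 13, 15 and 15 of 77 cases with SP, SOAβPIN-SP and SOANAP-SP, and rose in 0, 1 and 1. Among all tested genes 9.01%, 12.3% and 15.5% fell and 9.54%, 11.4% and 14.3% rose. COX15, needed for haem A of complex IV, fell with all 3 aerosols (-0.47, -0.34 and -0.49), as did the complex I assembly gene TMEM186 (-0.60, -0.61 and -0.95), and OGDH rose (0.24, 0.27 and 0.32). GABPB1 rose with SOAβPIN-SP (0.38) and SOANAP-SP (0.29). Of the 13 mRNAs of the mitochondrial genome 0 changed with SP and with SOANAP-SP and 1 rose with SOAβPIN-SP. SOANAP-SP against SOAβPIN-SP, SOANAP-SP against SP and SOAβPIN-SP against SP gave 0 of 80 genes each in EA.hy926 cells (1, 9 and 5 at an unadjusted p under 0.05, beside 12.4%, 13.5% and 3.31% of all genes; 0 with limma-voom and with DESeq2). Of the 80 log2 values 41, 76 and 73 were positive in these comparisons. The 80 genes share the same libraries, so these counts are not separate observations. Library means of the 80 genes, minus the CA mean, were -0.16 to -0.08 with SP, -0.13 to 0.14 with SOAβPIN-SP and -0.04 to 0.07 with SOANAP-SP. Of all genes 0.383% were higher and 0.486% lower in SOANAP-SP against SOAβPIN-SP (0.868% together). For SOANAP-SP against SP these shares were 0.56% and 0.551% (1.11% together), and for SOAβPIN-SP against SP 0%.

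The difference between the responses of EA.hy926 and A549 cells was tested as an interaction over all 30 libraries, on 9900 genes. A negative value means a log2 fold change lower in EA.hy926 than in A549 cells, through a smaller rise or a larger fall. With SOANAP-SP 10 of the 80 genes had a negative and 0 a positive difference past the adjusted p (background 7.95% and 11.8%), with SOAβPIN-SP 5 and 0 (6.63% and 9.55%), and with SP 1 and 0 (1.66% and 3.48%). With SOANAP-SP the largest differences, EA.hy926 minus A549, were those of COX7A2 (-0.62 ± 0.17, adjusted p = 0.0085) and UQCRC2 (-0.62 ± 0.12, adjusted p = 0.00054), followed by COX7B (-0.53), NDUFB7 (-0.49), NDUFA4 (-0.48), NDUFV3 (-0.45), COX6B1 (-0.42), SDHA (-0.40), COX5A (-0.32) and ATP5F1A (-0.26). With SOAβPIN-SP they were SDHA (-0.54), UQCRC2 (-0.52), NDUFV3 (-0.47), NDUFS1 (-0.36) and ATP5F1A (-0.27), and with SP NDUFV3 (-0.60). NDUFV3 differed by its fall in EA.hy926 cells, whereas the other genes had risen in A549 cells. In A549 cells NDUFV3 had 9.58 to 13.2 CPM in exposed and 10.2 to 10.9 CPM in CA libraries.

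Both libraries of a culture share an experiment and exposure by the labels, which do not name an insert. With the culture as a block 16 genes differed with SOANAP-SP, all with negative values. ATP5F1A was then lost with SOANAP-SP and SOAβPIN-SP, and with SOAβPIN-SP 4 values were negative and 1 positive. DESeq2 called 16 genes with SOANAP-SP, and with SOAβPIN-SP 5 negative and 1 positive values. The count with SOANAP-SP was 24 without EA.hy926 CA replicate 3. With other single libraries left out it was 3 to 5: without A549 CA replicate 1, 3 or 4, A549 SOANAP-SP replicate 2 or 3, EA.hy926 CA replicate 1 or 4 or EA.hy926 SOANAP-SP replicate 2, 3 or 4. With SOAβPIN-SP it was 2 or 3 without A549 CA replicate 1 or 4, A549 SOAβPIN-SP replicate 1 or 3 or EA.hy926 SOAβPIN-SP replicate 2, 3 or 4, and with SP 0 without A549 SP replicate 3 or EA.hy926 SP replicate 2 and 2 without A549 CA replicate 2. The differences of UQCRC2 with both SOA aerosols, of SDHA with SOAβPIN-SP and of COX7A2 with SOANAP-SP held without any single library. Within experiment 42, however, SOANAP-SP gave similar medians of the 80 genes, 0.28 in A549 and 0.24 in EA.hy926 cells. There COX7A2 had 0.32 in A549 and 0.19 in EA.hy926 cells, NDUFV3 -0.18 and -0.29, and UQCRC2 0.56 and 0.18. Within experiment 38, with SOAβPIN-SP, SDHA had 0.28 and 0.14 and UQCRC2 0.29 and 0.04. These values rest on single libraries.

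The lines also differed in clean air. Of the 80 genes 25 were higher and 39 lower in EA.hy926 than in A549 cells, where 40.6% of all genes were higher and 40.2% lower. With library totals in place of TMM 34 were higher and 26 lower, as the median of all genes moved by 0.23 on the log2 scale. With TMM over both lines 9 of 11 genes of complex IV were lower and 0 higher in EA.hy926 cells (median -0.62), but COX4I1 (-0.03) and COX7A2 (-0.11) did not pass with library totals. In CPM scaled within each line COX8A and COX5B had the higher mean in EA.hy926 cells, 283 against 267 and 164 against 147 CPM per kb of transcript. With TMM, in complex II 3 genes were higher and 1 lower. The mRNAs of the mitochondrial genome were lower in 11 of 13 cases and higher in 1, with 2.58 to 4.75% of the counts in EA.hy926 and 10.7 to 15.3% in A549 CA libraries.

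SDHD showed the largest difference of the 80 genes, with 173, 151, 156 and 185 CPM in EA.hy926 CA libraries and 37.5, 38.1, 31.0 and 36.6 CPM in A549 CA libraries. All EA.hy926 values lay far above all A549 values, and the log2 difference was 1.97 ± 0.09. This fit scaled both lines together by TMM, while CPM were scaled within each line, so that its values are lower than ratios of the CPM printed here, and with library totals SDHD had 2.19, ATP5MC1 -1.61 and NDUFV3 1.28. SDHA (0.86) and SDHB (0.72) were higher as well, while SDHC was lower (-1.05). ATP5MC1 had 46.6, 43.1, 39.9 and 53.1 CPM in EA.hy926 and 131, 152, 127 and 138 CPM in A549 libraries (-1.83 ± 0.11). NDUFB1 (-1.81) and NDUFA10 (-1.75) were lower by similar factors and COX6B1 (-1.30) by a smaller one, with no overlap in their CA values. NDUFV3, the gene that fell in EA.hy926 cells with every aerosol, was higher in this line in CA (1.05), with 24.6 to 26.5 CPM in EA.hy926 and 10.2 to 10.9 CPM in A549 cells. CYC1 (-0.09) and COX8A (-0.16) did not pass, and CYCS (-0.37) did not pass with library totals.

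**Figure D5:**
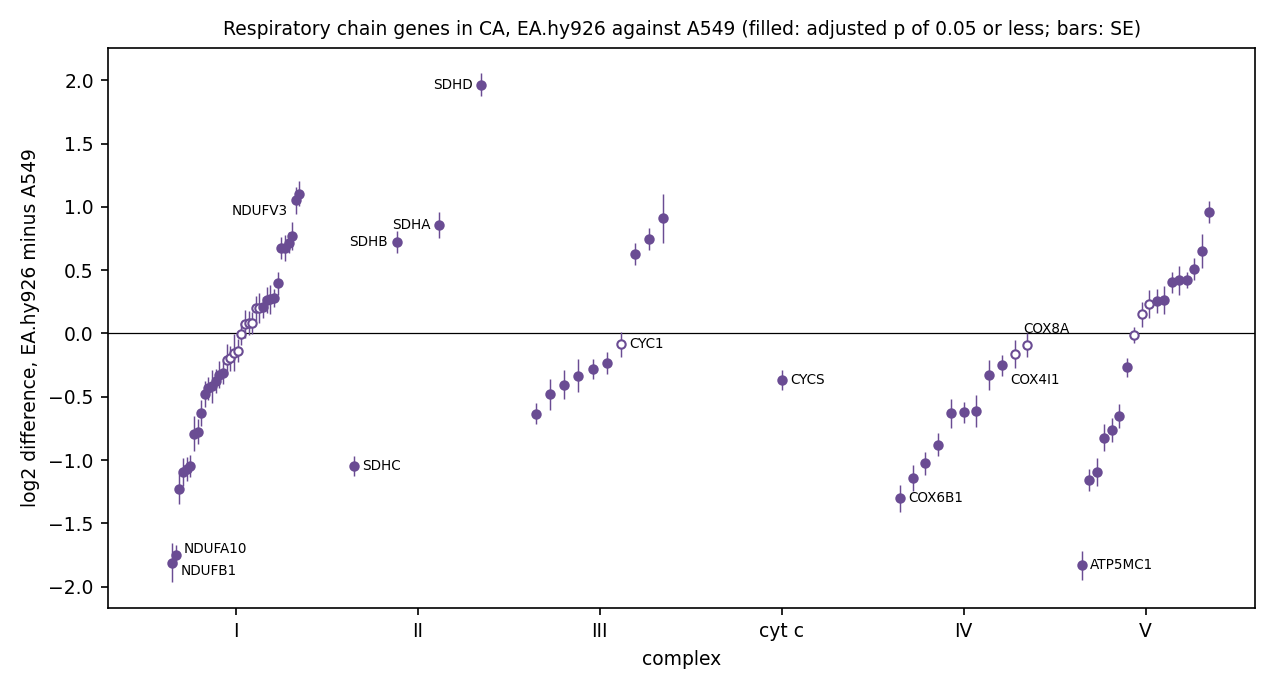
Log2 difference in CA, EA.hy926 minus A549 (vertical axis), of the 80 genes sorted within each complex (horizontal axis); filled points passed the adjusted p, bars are standard errors, and genes named in the text are labelled. SDHD stands at 1.97, ATP5MC1 at -1.83, and all 11 genes of complex IV lie below 0 with this scaling (TMM over both lines), though not in CPM scaled within each line.

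Per kilobase of the canonical transcript, levels in CA differed widely among the 80 genes. In EA.hy926 cells they ran from 3.62 CPM per kb for NDUFA9 to 602 for ATP5F1B, the catalytic subunit β of complex V, and in A549 cells from 1.82 for NDUFV3 to 520 for COX6B1. Complex IV had the highest median level in both lines, 164 CPM per kb in EA.hy926 and 185 in A549 cells, above complex V with 99.9 and 109. Complex I had medians of 75.4 and 65.9, complex II of 68.0 and 40.2 and complex III of 55.7 and 57.2. The canonical transcript may not be the isoform these cells use, so these levels are approximate. UQCRHL and UQCRH are near-identical copies whose reads cannot be told apart with certainty, and 26 of the 80 genes share exonic bases with another gene of the tables, 21 of them with a gene on the opposite strand, among them ATP5ME with MYL5 and UQCRQ with GDF9.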

How the data were processed

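Gene counts of 30 poly-A libraries were deposited by the authors as whole numbers of reads per gene. By the methods, reads were trimmed (cutadapt), aligned by STAR to the human GRCh38 genome, deduplicated with unique molecular identifiers and assigned to Ensembl genes by htseq-count. Versions in the submitters' processing notes are 2.7.3a for STAR and 1.26.0 for DESeq2; these notes list the mouse build GRCm38. The strand setting is not given in the sources used here. A deposited normalized signal, counts divided by DESeq2 size factors, served as an alternative only.

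Here genes with at least 30 counts in at least 3 libraries of a line were tested with edgeR 4.0.16 (R 4.3.3; TMM, robust quasi-likelihood) over the 15 libraries of a line with exposure as factor, in place of limma-voom with an unnamed sequencing batch as in the study's methods. P-values were adjusted by the Benjamini-Hochberg method over all tested genes; "passed", "rose" and "fell" mean that this p was at most 0.05, and a DEG had also a log2 fold change of 0.5 in size. CPM are TMM-normalized; for library means they were log2-transformed (prior count 2). Groups came from the labels. The fit of both lines used all 30 libraries. Gene positions and canonical transcript lengths are those of GENCODE v44 on GRCh38, promoters those of RefSeq; ATP5MPL and ATP5MD are older symbols.

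Members and lists were chosen with earlier results of these data known. Genes named are, per line and complex, up to 3 with the largest change against CA among those past the adjusted p, members fixed by role (SDHA to SDHD, CYC1, CYCS, ATP5IF1) or with paralog isoforms, up to 5 each with the largest differences between lines or aerosols, and up to 3 per list; other genes were named after their values were seen. Lists are described by counts and medians. Replicate numbers do not pair the exposures: same-numbered libraries deviated together (correlation over 0.1) in 7 of 21 A549 and 10 of 21 EA.hy926 pairs. The exception was SOAβPIN-SP and SP in A549 cells, where all 3 pairs did (0.26, 0.299 and 0.395); with the block this comparison again gave 0 genes. By the labels both lines of a culture share an experiment and exposure, though no insert is named (9 of 15 pairs over 0.1). The culture block is therefore given beside the lines' results. On simulated counts for SOANAP-SP against CA, 52 of 100 genes changed by 0.5 and 93 of 98 changed by 1 were recovered in A549 cells (9 of 11462 unchanged genes called), and 54 of 99 and 91 of 98 in EA.hy926 cells (11 of 10439). The simulation changed far fewer genes than passed in the data, and its smallest change was 0.5. It drew no effect of an experiment shared by many genes. These shares therefore do not carry over to the calls reported here. Alternatives were limma-voom 3.58.1, DESeq2 1.42.0, other scalings, filters (none, or 30 CPM) and blocks, the compared groups alone, the signal as log2(value + 1) in limma, each library left out, and, chosen after seeing the data, totals without mitochondrial genes. Figures used Python 3.11.15 and matplotlib 3.10.9.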

Additional observations from a re-analysis of the deposited data

Results flagged for a closer look

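Responses differed between the lines by the interaction test in 16 cases over the 3 aerosols, all with the lower log2 fold change in EA.hy926 cells (EA.hy926 minus A549). Such negative differences made up 12.5% of the 80 genes with SOANAP-SP, 6.25% with SOAβPIN-SP and 1.25% with SP. Of all genes they made up 7.95%, 6.63% and 1.66%, so the shares with SOAβPIN-SP and SP were no higher than those of all genes. With SOANAP-SP these were COX7A2 (-0.62), UQCRC2 (-0.62), COX7B (-0.53), NDUFB7 (-0.49), NDUFA4 (-0.48), NDUFV3 (-0.45), COX6B1 (-0.42), SDHA (-0.40), COX5A (-0.32) and ATP5F1A (-0.26). With SOAβPIN-SP they were SDHA (-0.54), UQCRC2 (-0.52), NDUFV3 (-0.47), NDUFS1 (-0.36) and ATP5F1A (-0.27), and with SP NDUFV3 (-0.60). For NDUFV3 the value comes with a fall in EA.hy926 cells, and for the others with a rise in A549 cells.

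Single libraries stood apart from the other 3 of their group by Dixon's test in 6 of 84 groups checked, where chance gives about 1 in 20. In A549 cells these were COX6B1 in CA replicate 3 (225 CPM, the lowest), NDUFA10 in SOAβPIN-SP replicate 4 (65.95 CPM, the lowest) and COX8A in SOANAP-SP replicate 3 (202 CPM, the highest). In EA.hy926 cells they were NDUFC2 in SOAβPIN-SP replicate 1 (55.4 CPM, the highest) and in CA replicate 1 (48.7 CPM, the highest), and the mean log2 CPM of the 80 genes in SOANAP-SP replicate 1 (6.32, the highest).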

How the results depend on the processing

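None of the 93 calls of named genes changed direction. The medians of the 80 genes against CA moved by less than the spread between libraries, with those of SP (-0.10 to 0.04) and SOAβPIN-SP (-0.02 to 0.07) in A549 cells and of SOAβPIN-SP (-0.09 to 0.04) and SOANAP-SP (-0.08 to 0.02) in EA.hy926 cells on both sides of 0 when 1 library was left out. Scaled by library totals, the genes that passed were 18 for SOANAP-SP against CA, 3 for SOANAP-SP against SOAβPIN-SP and 2 for SOANAP-SP against SP in A549 cells, 2 for SOANAP-SP in EA.hy926 cells and 5 for the interaction with SOANAP-SP; with totals without mitochondrial genes, chosen after seeing the data, they were 29, 14, 7 and 2 for the first 4 of these. DESeq2 gave 6 for SP in EA.hy926 cells and 16 for the interaction with SOANAP-SP, as did the replicate block by culture (16). No filter gave 1 for SP in EA.hy926 cells, and the minimum of 30 CPM gave 0 for SOAβPIN-SP and 0 for SOANAP-SP there, since NDUFV3 is then not tested. The replicate number as a block gave 21 for SOANAP-SP against SP in A549 cells; against CA it gave 3, 7 and 37 in A549 and 4, 1 and 1 in EA.hy926 cells with SP, SOAβPIN-SP and SOANAP-SP, losing ATP5F1A with SP and NDUFB3 with SOAβPIN-SP in A549 cells. With 1 library left out, counts ranged over 0 to 5 (SP), 5 to 8 (SOAβPIN-SP) and 22 to 36 (SOANAP-SP) against CA in A549 cells, 2 to 37 (SOANAP-SP against SOAβPIN-SP) and 0 to 31 (SOANAP-SP against SP), 0 to 15, 0 to 2 and 1 to 3 against CA in EA.hy926 cells, 0 to 2, 2 to 5 and 3 to 24 for the interactions and 59 to 65 for the lines in CA. Of these calls 37 were lost under another alternative and 44 without at least 1 library. Genes below 30 counts in 3 libraries were out of reach at these depths, and errors cover the spread between libraries only.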
